A study of Mus musculus with 6 samples.

Results

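The genes described here encode 10 histone demethylases with a JmjC catalytic domain: Jmjd1c, Kdm3a, Kdm3b, Kdm6a, Kdm6b, Kdm2a, Kdm2b, Kdm4a, Kdm5a and Kdm5c. They were found by their gene names, and all 10 were present among the 13932 genes of the deposited gene table. The deposited junction table held 308 splice junctions of these 10 genes among 151811. The members were selected on measured values of these same libraries, namely the inclusion levels of exons of Jmjd1c and Kdm6a in S34F and WT. The differences between genotypes in the levels and splice junctions of these genes are therefore given as descriptions. Fits across all genes and events included them, and the number of members those fits called is given only beside the share called among all features, with nothing read from it.

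JmjC demethylases are iron- and oxoglutarate-dependent enzymes that remove methyl groups from histone lysines. Members of the Kdm3 family act on H3K9, Kdm6 on H3K27, Kdm5 on H3K4, Kdm2 on H3K36, and Kdm4 on H3K9 and H3K36. In blood, KDM6A is known as a tumour suppressor that is recurrently mutated in leukaemia, and JMJD1C as a gene on which some acute myeloid leukaemias depend.

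The cells were common myeloid progenitors, which give rise to granulocytes, monocytes, red cells and platelets. They were sorted from mouse bone marrow as lineage-negative, c-Kit+, Sca-1-, CD34+ and Fcgamma-. All mice had been transplanted with marrow that carried the rtTA transactivator and an inducible U2AF1 transgene, either U2AF1(S34F) or U2AF1(WT), and both groups were fed doxycycline chow for 5 days, more than 6 weeks after transplantation. U2AF1 contacts the AG that ends an intron, as part of the U2AF heterodimer, and S34F is a recurrent substitution in myelodysplastic syndromes. The WT group therefore also carried a transgene, the labels name no change to the endogenous U2af1 gene, and each of the 3 libraries per genotype came from a pool of 4 to 5 mice. The genotypes follow the sample titles, since the genotype entry of all 6 samples names S34F.

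Library totals were 46827909 to 51862032 gene counts in S34F and 54727541 to 94562984 in WT. The sorting markers Kit and Cd34 summed to 844 to 1060 CPM (gene counts scaled to a common library size with TMM factors) in S34F and 916 to 1029 in WT. Ly6a, which encodes Sca-1, was at 1.08 to 1.84 CPM, and Fcgr3, the Fc receptor gene, was still at 33.4 to 110.8. The 4 dendritic cell markers, all detected in every library, summed to 29.4 to 46.8 CPM in S34F and 126 to 206 in WT. The 3 erythroid markers summed to 23.4 to 31.2 against 31.4 to 51.0. The 2 megakaryocyte markers summed to 73.8 to 104 against 115 to 156, mostly from Itga2b, while Pf4 overlapped (3.68 to 4.38 against 2.24 to 5.40). Summed markers of myeloid progenitors, mature neutrophils, stem cells and B cells overlapped between the genotypes. Whether cells of these types bear on the values below was not tested. Ddx3y, a Y-linked gene, had 5714 and 5580 counts in replicate 1 of S34F and WT and 0 in the other 4 libraries, so replicate 1 held male cells in both genotypes and the others female cells.

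In S34F progenitors, Jmjd1c transcripts used an upstream 3' splice site less and a downstream site 79 nt away more, and both alternative exons were skipped more often. Inclusion of a coding Kdm6a exon of 135 nt was lower. The sequences of these acceptors are shown because the splice sites differ in the base just before the AG, intron position -3. The acceptor of the first alternative exon of Jmjd1c, 125 nt long, is not shown. It has AAG, as the downstream acceptor does, and its share of reads was lower in S34F. Each sequence shown is given 5' to 3' with the last 30 bases of the intron and the first 10 of the exon. Capitals mark the last 3 bases of the intron. The positions are in the build mm9, plus strand: the upstream acceptor of Jmjd1c lies at chr10:66680756-66680795, the downstream acceptor at chr10:66680835-66680874 and the acceptor of the common exon at chr10:66680995-66681034.
Jmjd1c upstream acceptor: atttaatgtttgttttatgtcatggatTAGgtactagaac
Jmjd1c downstream acceptor: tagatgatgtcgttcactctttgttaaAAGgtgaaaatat
Jmjd1c acceptor of the common exon: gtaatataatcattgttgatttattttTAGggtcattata

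The 2 neighbouring acceptors give a Jmjd1c exon of 144 nt or of 65 nt with the same end. The exon follows, chr10:66680786-66680929, with the 79 bases present only in the longer form in capitals.
Jmjd1c 144 nt exon: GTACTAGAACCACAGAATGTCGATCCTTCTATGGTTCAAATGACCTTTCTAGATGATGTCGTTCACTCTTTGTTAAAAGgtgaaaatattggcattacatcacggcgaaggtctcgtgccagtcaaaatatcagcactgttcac

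For Kdm6a the acceptor of the 135 nt exon, at chrX:17824071-17824110, has TAG, as does that of an unannotated segment of 156 nt further on, at chrX:17824663-17824702. The next annotated exon has CAG, at chrX:17825366-17825405.
Kdm6a acceptor of the 135 nt exon: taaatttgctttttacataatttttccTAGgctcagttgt
Kdm6a acceptor of the 156 nt segment: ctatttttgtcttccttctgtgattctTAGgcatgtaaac
Kdm6a acceptor of the next annotated exon: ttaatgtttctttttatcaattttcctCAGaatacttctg

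Jmjd1c, a member of the Kdm3 family, had the most cassette exons and acceptors that moved by 10 percentage points or more, 4 of 6 and 6 of 10. Reads that left the exon upstream of the alternative region ended at 4 acceptors. These were the 125 nt exon, the upstream and the downstream acceptor of the next exon, and the common exon after it. The upstream acceptor received 10.1%, 6.25% and 10.2% of these reads in the S34F libraries and 26.2%, 23.9% and 23.7% in the WT libraries. The means were 8.85% ± 2.25 and 24.6% ± 1.40 (SD, n = 3 libraries each, 160 to 371 reads per library). Every S34F library was below every WT library.

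The downstream acceptor moved the other way. It took 22.6%, 23.8% and 16.2% in S34F and 7.77%, 6.76% and 11.3% in WT. Joining straight to the common exon, which leaves out both alternative exons, took 13.4%, 25.6% and 23.9% in S34F and 7.77%, 4.95% and 7.28% in WT. S34F replicate 1 was the lowest of its genotype here but still above all WT libraries. The 125 nt exon received 53.9%, 44.4% and 49.7% against 58.3%, 64.4% and 57.7%, also without overlap.

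Set against the downstream acceptor alone, and counting reads from both exons that join to the pair, the upstream acceptor held 53.5%, 50.4% and 47.3% in S34F and 76.2%, 84.3% and 74.9% in WT. The means of 50.4% ± 3.13 and 78.4% ± 5.09 differed by -28.0 percentage points. Reads from the upstream exon alone gave 30.1% ± 8.85 against 74.3% ± 5.70, and reads from the 125 nt exon gave 63.4% ± 9.84 against 82.8% ± 7.48. The shift was thus seen from both donors, and the 3 values of each genotype did not overlap in either. The deposited table of the authors called a single one of the 308 member junctions at an adjusted p under 0.05, against 0.34% of all its junctions. This was the Jmjd1c junction from 66678123 to the upstream acceptor at 66680786, with a log2 fold change of -1.72 in the authors' deposited table.

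**Figure D1:**
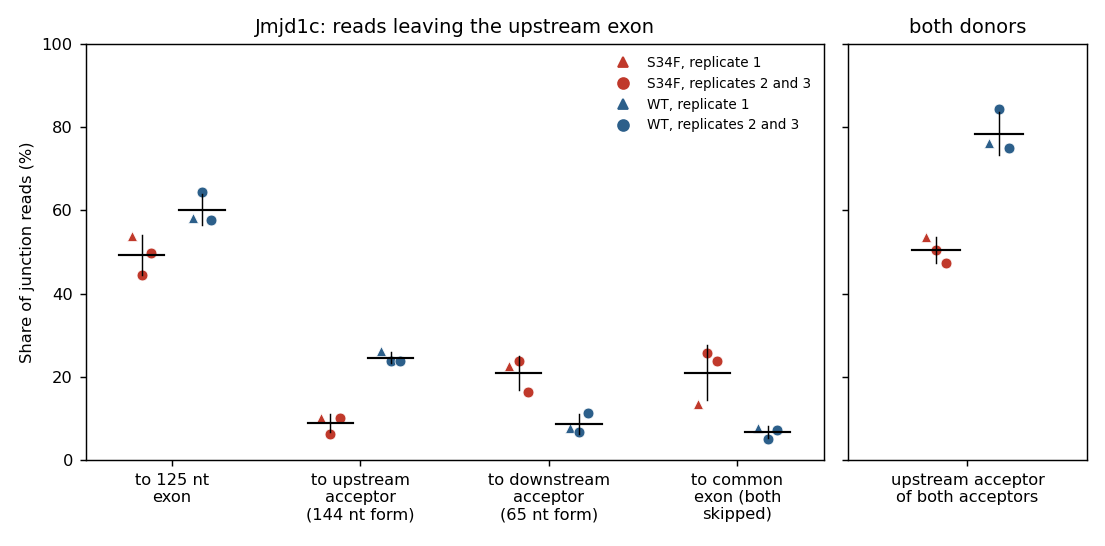
Share of Jmjd1c junction reads, in percent, for each of the 6 libraries. The left panel divides the reads leaving the upstream exon among 4 acceptors, and the right panel gives the upstream acceptor's share of the reads of both neighbouring acceptors. Horizontal lines are means and vertical lines are ± 1 SD of 3 libraries, and triangles mark replicate 1. S34F libraries lie at 47.3% to 53.5% on the right and WT libraries at 74.9% to 84.3%.

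Inclusion levels of the cassette exons describe the same region through pairs of junctions, with the average of both inclusion junctions set against the skipping junction. Inclusion of the 144 nt form was 83.9%, 69.6% and 72.4% in S34F and 90.6%, 92.8% and 88.1% in WT. The difference of -15.2 points was -48.0 from the upstream junction alone and -8.95 from the downstream junction alone. The 65 nt form stood at 76.9% ± 7.03 against 89.3% ± 2.48 (-12.4 points, and -5.71 from its upstream junction alone). The forms share their downstream junction, so they are not independent. The acceptor of the 65 nt form itself took a larger share of the reads from the upstream exon in S34F, as given above. The skipping junction it is set against also took a larger share, so the direction for the 65 nt form depends on the measure. The 125 nt exon had a higher inclusion level in S34F, at 81.5%, 85.8% and 78.6% against 62.6%, 66.2% and 63.9%. Its skipping junction is the one into the upstream acceptor, which was lower in S34F, while its own share of the reads from the upstream exon was lower in S34F, as given above. The direction for the 125 nt exon therefore depends on the reads it is set against.

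Forms ending at a minor donor 4 nt further on, 148 and 69 nt long, differed by -42.3 and -6.90 points. That donor carried 0.44% to 4.81% of the reads joined to the common exon, with 1 to 12 reads per library, and the value for the 148 nt form was -7.01 points from its downstream junction alone. The genotypes overlapped for the 69 nt form, whose difference was -0.95 points without S34F replicate 3 and -13.6 without S34F replicate 1, and also for the 114 nt exon near the start of the gene, which was included at 96.6% ± 2.40 and 94.6% ± 2.90. The first exons of Jmjd1c gave overlapping shares. The upstream start supplied 35.4%, 44.1% and 47.6% of the reads into the first shared exon in S34F and 42.0%, 58.2% and 70.9% in WT.

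The forms differ in reading frame, as computed from the annotated transcript Jmjd1c-001 of 2350 codons. With the 125 nt exon and the 65 nt form the frame is lost and a stop follows after 80 codons. With the 65 nt form alone the frame is kept and 2282 codons remain. The 144 nt form alone stops after 20 codons and the form with neither exon after 11. Protein was not measured, and which exons occur together on a transcript was read only from adjacent junctions.

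Kdm6a encodes UTX, an H3K27 demethylase of the MLL3 and MLL4 complexes that escapes X inactivation. Inclusion of its 135 nt exon, chrX:17824101-17824235, was 50.4%, 62.5% and 56.8% in the S34F libraries and 77.9%, 79.2% and 87.5% in the WT libraries. The means were 56.6% ± 6.06 and 81.5% ± 5.20 (170 to 599 reads per library), a difference of -24.9 points. The highest S34F library was below the lowest WT library. Leaving out any single library, or using either inclusion junction alone, gave -27.9 to -21.8 points.

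Reads leaving the upstream exon went to the 135 nt exon in 45.0% ± 2.64 of cases in S34F and 64.5% ± 1.89 in WT. They went straight to the next annotated exon in 36.8%, 29.9% and 35.1% against 17.5%, 16.9% and 12.2%. The 156 nt segment between them, chrX:17824693-17824848, received 21.1% ± 0.959 and 19.9% ± 1.55, and these values overlapped. The segment's acceptor also ends in TAG. Inclusion of the segment measured against skipping was 32.9% ± 4.10 and 26.4% ± 2.51, but the difference of 6.51 points was -0.53 from its upstream junction alone and 4.16 without S34F replicate 1.

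Further upstream in Kdm6a, an annotated exon of 99 nt with a TAG acceptor had inclusion levels of 86.6%, 80.2% and 81.4% in S34F and 94.0%, 89.4% and 88.7% in WT. Its 51 nt form, which starts at a CAG acceptor inside it, was at 69.7% ± 3.74 against 79.9% ± 6.98. This form shares the downstream junction with the 99 nt exon, its own upstream junction held 0 to 30 reads per library, and from that junction alone its difference was 10.98 points in the other direction. Without WT replicate 1 it was -6.31 points. Lengths of 135, 99 and 51 nt keep the reading frame when left out. Skipping the 135 nt exon takes 45 codons from the 1401 of the annotated transcript Kdm6a-001 and leaves 1356.

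Uty, the Y-linked copy of Kdm6a, is not among the 10 genes and was not used to choose them. Its corresponding exon, chrY:505566-505700 on the minus strand, is identical in 133 of 135 bases, and the 30 intron bases before it are identical too. Both exons are shown because their acceptors have the same sequence on different chromosomes. The Kdm6a exon is in capitals with its flanks in lower case (chrX:17824086-17824245), and in the Uty exon capitals mark the bases that differ.
Kdm6a 135 nt exon: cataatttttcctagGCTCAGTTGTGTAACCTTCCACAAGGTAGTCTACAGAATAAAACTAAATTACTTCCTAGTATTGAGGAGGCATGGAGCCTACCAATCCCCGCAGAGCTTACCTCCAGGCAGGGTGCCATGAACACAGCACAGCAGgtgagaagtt
Uty 135 nt exon: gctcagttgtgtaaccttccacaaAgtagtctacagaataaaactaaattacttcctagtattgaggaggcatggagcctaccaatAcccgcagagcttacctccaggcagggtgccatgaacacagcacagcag

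In the male replicate 1 libraries, Uty joined into this exon in 54 of 120 reads in S34F and 103 of 152 in WT, against skipping. These shares were 45.0% (95% Wilson interval 36.4 to 53.9) and 67.8% (60.0 to 74.7). Kdm6a in the same libraries gave 53.7% (44.9 to 62.4) and 78.6% (70.1 to 85.2). With 1 library per genotype there is no replicate check for Uty, and the intervals cover counting error only. The 4 female libraries had 0 Uty junction reads at this exon, so reads were not split onto the Y copy there. Exchange of reads between the near-identical copies in the male libraries was not tested, so their Uty and Kdm6a shares may not be independent.

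**Figure D2:**
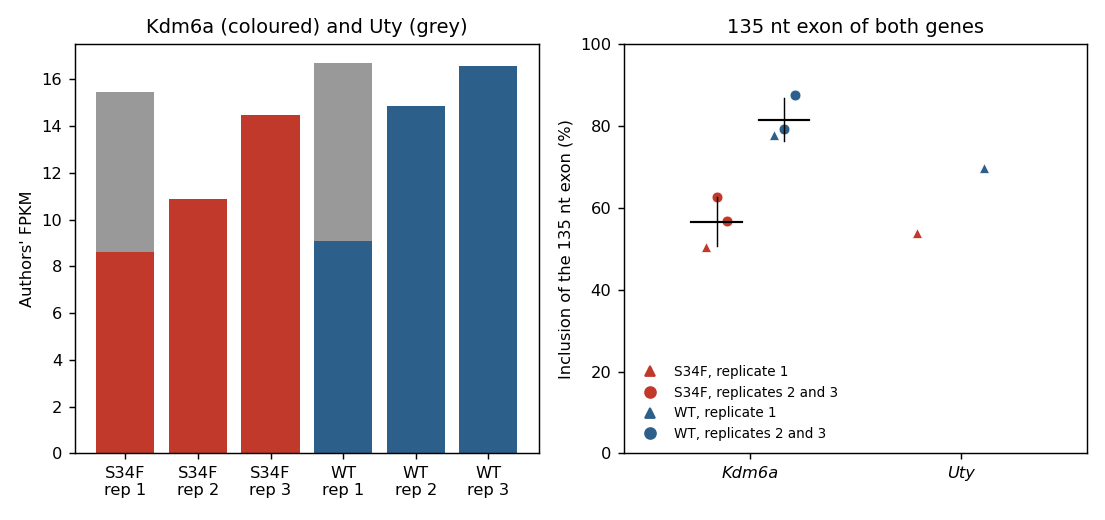
Left, levels of Kdm6a and, stacked above it, of Uty in each library, as the authors' FPKM. Right, inclusion level in percent of the 135 nt exon, with lines for the mean ± 1 SD of 3 libraries for Kdm6a. Uty is present in replicate 1 of both genotypes (triangles), where inclusion of its exon was 53.8% in S34F and 69.8% in WT.

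Among the H3K4 demethylases, Kdm5a had a noncoding annotated exon of 82 nt, chr6:120388462-120388543, whose inclusion level was 19.3%, 17.3% and 22.1% in S34F and 28.5%, 33.2% and 33.96% in WT. Its acceptor ends in TAG and that of the next exon in CAG. An annotated coding exon of Kdm5a, 135 nt long, was at 84.0% ± 1.37 against 90.6% ± 3.01, without overlap. Its shorter form of 123 nt was at 70.4% ± 0.905 against 80.9% ± 5.18, but the donor of that form held 4 to 11 reads per library and the difference was -6.92 points from its upstream and -5.50 from its downstream junction alone. Kdm5c, the X-linked member of this family, had a coding exon of 123 nt with TAG before it and CAG before the next exon. Its inclusion level was 87.3%, 81.6% and 88.8% in S34F and 94.0%, 94.0% and 93.1% in WT, with S34F below WT in every library. The other 3 Kdm5c exons and the other 3 Kdm5a exons differed by less than 3 points.

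In the remaining genes no exon or junction choice moved by 10 points or more. Kdm2a, an H3K36 demethylase, had an unannotated exon of 45 nt at 9.40% ± 2.94 against 2.37% ± 2.05. Each inclusion junction of this exon held only 0 to 16 reads per library. Kdm2b, the subunit that brings the PRC1.1 complex to CpG islands, had a 114 nt exon at 89.9% ± 3.83 against 94.9% ± 3.16, with overlap. Kdm3a had a single exon, which differed by 1.00 points. Kdm3b and Kdm4a had junction choices but no cassette exon that could be measured, and their choices moved by at most 9.5 and 9.0 points. Kdm6b, the H3K27 demethylase related to Kdm6a, had no event that could be measured.

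Over all 10 genes, 24 cassette exons of 7 genes could be measured, and 8 moved by 10 points or more, against 10.1% of the 7260 exons of all genes. Of these, 7 were lower in S34F (background 6.54%) and 1 was higher (background 3.60%), and all 8 belong to Jmjd1c, Kdm6a and Kdm5a. For 13 exons S34F and WT did not overlap, against 19.7% of all exons. Of the 8, the Jmjd1c 148 nt, Kdm5a 123 nt and Kdm6a 51 nt forms rest on a splice site with few reads, as described above. The median change was -3.49 points for the 24 and -0.37 for all exons. edgeR called 0 of the 24 (0.0275% of all exons, 783 of which had an unadjusted p under 0.05). DESeq2 called 1, against 1.69% of the 5852 exons to which it gave an adjusted p. It gave none to the Jmjd1c 148 and 69 nt forms. The counts include overlapping exons and describe genes chosen for such differences, so nothing is read from them.

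**Figure D3:**
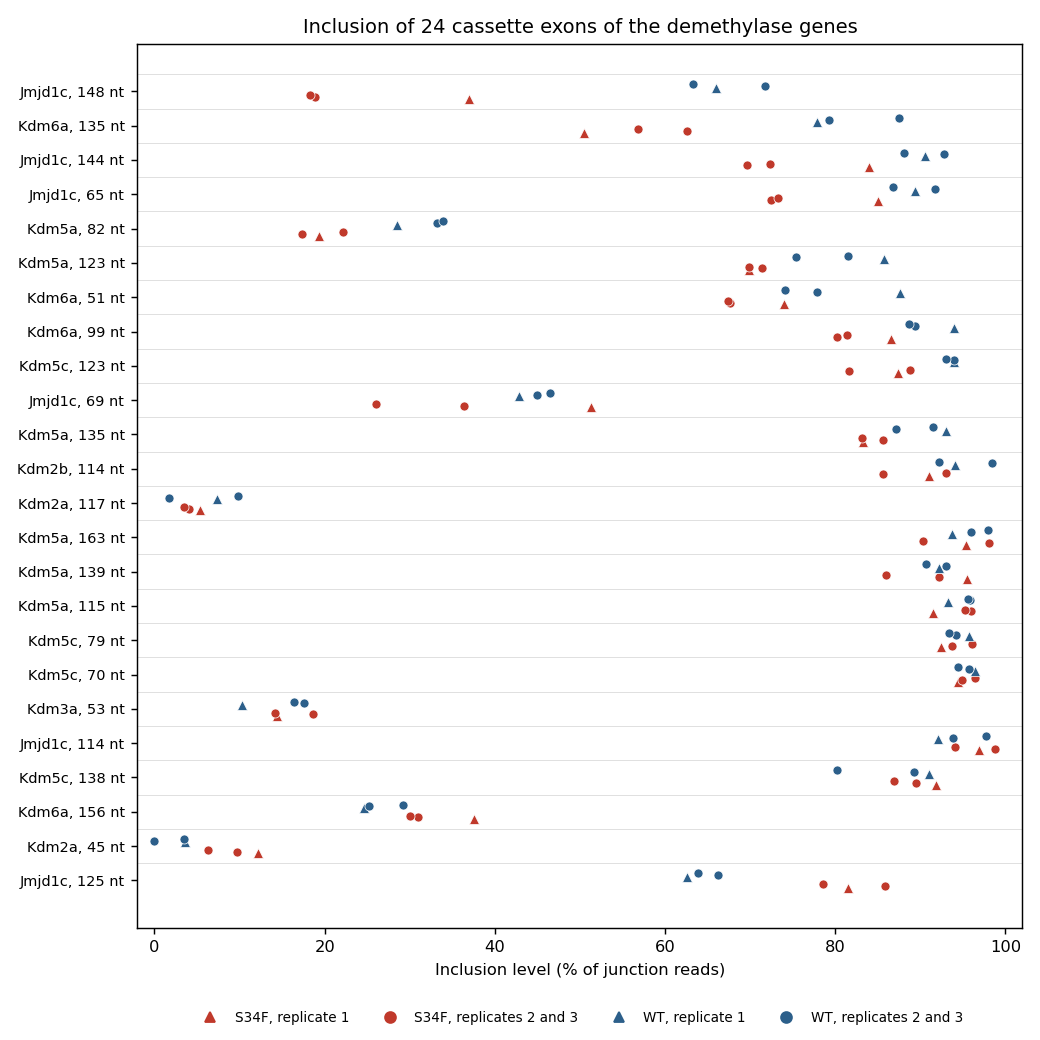
Inclusion level in percent of junction reads for the 24 cassette exons of the demethylase genes, ordered from the most negative difference at the top to the most positive at the bottom. Each point is a library, with triangles for replicate 1. The Jmjd1c 148 nt form rests on a donor with 1 to 12 reads, and the Jmjd1c 125 nt exon at the bottom is the only exon that was higher in S34F by 10 points or more.

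Acceptor choices, each an acceptor measured from a single donor, numbered 64 in 9 member genes. Among them 11 moved by 10 points or more, against 6.40% of the 29709 choices of all genes. Of these, 6 were lower in S34F (background 3.22%) and 5 higher (background 3.17%). T stood at position -3 in 5 of the 6 and in 1 of the 5. The upstream Jmjd1c acceptor is counted from both of its donors among the 6, and the downstream acceptor likewise among the 5. Among all genes, T stood there in 30.7% of acceptors, in 55.5% of the 958 that were lower by 10 points and in 16.1% of the 942 that were higher. By base, 20 of the 29 member acceptors with T were lower in S34F (median change of the 29, -0.89 points). Of the 30 with C, 21 were higher (median 0.80 points). Directions by base were not counted over all genes, so nothing is read from them. The acceptor with T among the 5 higher was that of the common exon of Jmjd1c. The acceptor without T among the 6 lower was that of the Jmjd1c 125 nt exon, which has A. Acceptors of a single donor share their reads, so a loss at a site is a gain at another. edgeR called 0 of the 64, and 0% of all acceptor choices, 2227 of which had an unadjusted p under 0.05. DESeq2 called 3, against 1.31% of the 29134 to which it gave an adjusted p. Of 89 donor choices of member genes, 10 moved by 10 points or more, against 5.73% of all. All 10 were in Jmjd1c, Kdm6a and Kdm5a, and 0 of the 89 were called by edgeR (0.00997% of all) or DESeq2 (0.811%). The moved choices of Kdm6a and Kdm5a and 2 of the 4 of Jmjd1c are the same exon choices seen from the other end. The other 2 of Jmjd1c are its starts.

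Levels of the 10 genes differed little between the genotypes. edgeR called 0 of the 10 at an adjusted p under 0.05, and 0% of the 13905 genes tested, of which 1265 had an unadjusted p under 0.05. DESeq2 called 0 of the 10 and 0.689% of all, and the authors' deposited table held 0 of the 10 under that threshold and 0.63% of all. Of the 10 log2 fold changes, 6 were above 0 and 4 below, with a median of 0.06 against -0.01 for all genes. Fewer cells of a type and less RNA per cell cannot be told apart in these sorted bulk samples.

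Jmjd1c was at 258, 209 and 240.3 CPM in S34F and 239, 166 and 173 in WT, a log2 fold change of 0.29 (SE 0.16). WT replicate 1 lay within the S34F range and the other WT libraries lay below it. Kdm3b, a further H3K9 demethylase, had 187, 184 and 189 CPM in S34F and 210.5, 131 and 147 in WT, with WT replicate 1 above every S34F library (log2 fold change 0.20). Without WT replicate 1 the log2 fold changes were 0.48 for Jmjd1c and 0.43 for Kdm3b, and edgeR then called both among 1172 genes, 8.42% of those tested. Without WT replicate 2 the value for Kdm3b was 0.06. Kdm3a was at 88.5 ± 3.54 and 89.4 ± 8.29 CPM.

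Kdm6a was lower in both male libraries than in all 4 female libraries. It was at 97.3 CPM in the male S34F library and 91.3 in the male WT library, and at 154 and 156 in the female S34F libraries and 159 and 139 in the female WT libraries. The log2 fold change between genotypes was 0.06 (SE 0.24), and it ranged from -0.14 to 0.25 when 1 library was left out. In the male libraries Uty added 6.87 and 7.60 FPKM (the authors' length-scaled unit) to 8.60 and 9.08 of Kdm6a. In S34F the male sum of 15.5 lay above the female Kdm6a values of 10.9 and 14.5. In WT the male sum of 16.7 lay above the female value of 14.9 and was close to the other, 16.6. These female WT libraries, replicates 2 and 3, ranked the other way in CPM (159 and 139). Nothing is therefore read from small FPKM gaps between libraries. Kdm6b was at 10.6, 7.87 and 10.1 CPM against 15.7, 6.29 and 7.40, a log2 fold change of -0.04 that was 0.48 without WT replicate 1.

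Kdm5a was the only member whose genotypes did not overlap in level, against 15.6% of all genes. It had 230.4, 219 and 229 CPM in S34F and 244, 266 and 257 in WT, a log2 fold change of -0.18 (SE 0.09). Kdm5c was at 135, 174 and 166 CPM against 138, 134 and 135, with its male S34F library among the WT libraries. The log2 fold change was 0.22, and 0.34 without both male libraries. Its Y-linked copy Kdm5d had 2442 and 3141 counts in the male libraries and 0 elsewhere. Kdm2a was at 165 ± 10.6 against 145 ± 29.5 CPM, a log2 fold change of 0.18 that was 0.36 without WT replicate 1 and 0.09 without WT replicate 3. Kdm2b was at 100.2 ± 2.41 against 96.0 ± 7.40, and Kdm4a, an H3K9 and H3K36 demethylase, at 84.8 ± 3.11 against 92.0 ± 13.7.

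**Figure D4:**
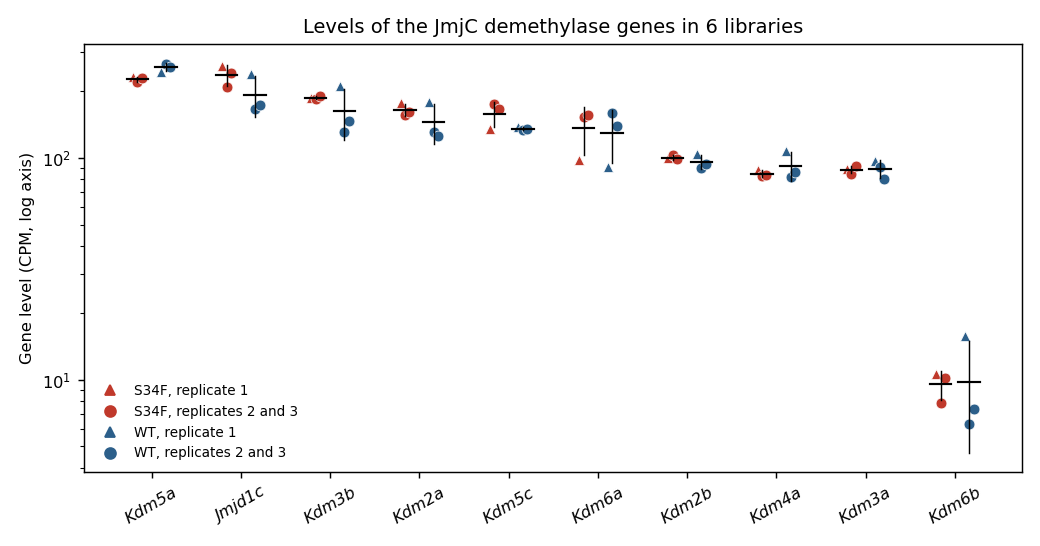
Level of each demethylase gene in CPM on a log axis, ordered by the WT mean, with a point for each library, triangles for replicate 1 and lines for the mean ± 1 SD of 3 libraries. Kdm6b lies lowest, Kdm6a is lower in both replicate 1 libraries, and Kdm5a alone shows no overlap between the genotypes.

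Per length, on the authors' FPKM scale, Kdm5a was highest with 21.4 ± 5.86 over the 6 libraries. Kdm2a (17.7 ± 2.88), Jmjd1c (17.4 ± 3.26), Kdm2b (14.5 ± 2.04), Kdm5c (13.3 ± 1.56), Kdm3b (13.1 ± 2.21), Kdm6a (12.4 ± 3.33) and Kdm4a (10.4 ± 1.92) followed, and each neighbouring pair in this order lay within its spread. Kdm3a, at 7.09 ± 1.11, and Kdm6b, at 1.28 ± 0.479, each lay below the gene before it by more than either SD. On this scale all 10 means were lower in S34F, as were 84.2% of all genes with a value, so FPKM was not used to compare genotypes.

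The genes whose level ran most like that of Jmjd1c over the 6 libraries were Pogz, Nsmce2, Ywhae and Dynll2, by the mean absolute difference in centred log2 CPM (0.0154 for Pogz, 0.0269 for Dynll2). Those most like Kdm6a were C1qtnf6, Gja1, Bambi-ps1 and F13a1 (0.0458 for C1qtnf6, 0.0785 for F13a1). Like Kdm6a, these genes were lower in both male libraries than in every female library. Each list holds the nearest of 12142 genes, so some close match would be found for any gene. Whether the genes are regulated together was not tested.

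Genes that work with these enzymes, or against them, were measured in the same fit. In each list below, 0 genes were called by edgeR or DESeq2, and all values are log2 fold changes with edgeR adjusted p over all genes. Of the 6 PRC2 genes, which write H3K27 methylation, all 6 had values above 0, with a median of 0.21 and Rbbp7 at 0.64 (adjusted p = 0.538) and Eed at 0.29 (0.564). The MLL3 and MLL4 complex, to which Kdm6a belongs, had 5 of 9 above 0 (median 0.25), with Dpy30 at 0.67 (0.550) and Ncoa6 at 0.55 (0.559). PRC1.1, the complex of Kdm2b, had 4 of 9 above 0 (median -0.03), with Bcorl1 at 0.50 (0.616) and Bcor at 0.20 (0.816). Among writers of H3K4 and H3K36 methylation 7 of 9 were above 0 (median 0.21), with Setd1b at 0.64 (0.559) and Setd1a at 0.53 (0.610). Writers of H3K9 methylation had 4 of 7 above 0 (median 0.06), with Prdm2 at 0.62 (0.604) and Setdb1 at -0.20 (0.548). The flavin-dependent demethylases with CoREST had 5 of 7 above 0 (median 0.10), with Rcor1 at 0.24 (0.622) and Hdac1 at -0.20 (0.715). Of 21 other JmjC genes 16 could be tested and 10 were above 0 (median 0.06), with Hif1an at 0.37 (0.599) and Phf2 at 0.27 (0.679). Of 7 X escape and Y-linked genes 3 could be tested, with Eif2s3x at 0.24 (0.685) and Xist at 0.21 (0.980). Without WT replicate 1, the only male WT library, edgeR called 16 of the 66 genes of these lists, 24.2% against 8.42% of all genes. Values that this omission moved by more than 1.5 times were Bcor (0.67), Prdm2 (1.26), Setd1a (1.04), Setd1b (1.07), Bcorl1 (0.97), Phf2 (0.58), Hif1an (0.68), Rcor1 (0.44), Ncoa6 (0.92), Dpy30 (1.11), Hdac1 (-0.34), Eif2s3x (0.07) and Xist (-0.38). The fit without WT replicate 1 kept the male S34F library, so it was not balanced for sex. With both male libraries left out edgeR called 10 of the list genes and 599 of all genes. With any other single library left out it called 0 of the list genes.

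Cassette exons of these other genes gave 7 of 65 moved by 10 points or more, which is 10.8% against 10.1% of all exons, and 6 of them were lower in S34F. The lower exons were in Kdm4b (-22.3 points), Mll3 (-17.9 and -11.0), Suv39h2 (-13.5), Prdm2 (-12.7) and Whsc1l1 (-12.3), and the higher exon was in Whsc1 (10.7). In 4 of the 6 lower exons the genotypes overlapped. Kdm4b was at -6.22 points without WT replicate 3, the first Mll3 exon at -7.55 without S34F replicate 3 and Whsc1l1 at -0.25 without S34F replicate 2 and -23.8 without S34F replicate 1. Prdm2 was at -4.91 without WT replicate 2 and -5.12 without S34F replicate 3, and Suv39h2 at -8.00 without WT replicate 3.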

How the data were processed

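RNA from 6 libraries, 3 per genotype, was analysed as deposited. Libraries were stranded, made after removal of ribosomal RNA and read as 100 bp pairs, per the labels' protocols. The series text names TopHat 2.0.8 and mm9; the submitters' processing notes add HTSeq 0.5.4p1, DESeq2 1.6.1, Bowtie2 2.1.0 and Cufflinks 2.1.1, with no role given. Use of strand in counting is not given in the sources used here, so overlapping genes cannot be told apart. Deposited were the authors' raw counts per gene and per junction, FPKM per gene by the authors, and their own deposited log2 fold changes and p-values, which were used only where their table is named.

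Of the printed junction positions, 0% were at GT-AG introns as given and 99.985% after a shift of 1 base inward, so printed positions are exon ends. Sequences came from the mouse genome of that build. Gene counts were tested with edgeR 4.0.16 (R 4.3.3, TMM, quasi-likelihood F test, two-sided, Benjamini-Hochberg, threshold 0.05). Events needed 20 reads in every library, and each form 2% of reads for cassette exons of 10 to 1000 nt and 1% for acceptors and donors. The 2 forms of an event were fitted as paired counts, and edgeR tested the interaction of genotype and form. DESeq2 1.42.0 and limma 3.58.1 were alternatives, beside other filters and scaling, left-out libraries and a replicate block. Python 3.11.15 and pysam 0.24.0 were used.

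On simulated data, edgeR recovered 18%, 64%, 96% and 100% of genes changed 1.5-, 2-, 4- and 8-fold, with 14 false calls among 13900 genes, and 0%, 0%, 22% and 68% of cassette exons whose odds changed by as much, with 0 false calls among 7260 exons. Pools may share marrow donors, so p-values measure the spread between these pools. Members and lists were chosen with earlier results of these data known. Named were all 10 genes, every cassette exon of Jmjd1c and Kdm6a, other events moved by 10 points, the 2 largest changes of each list and the 4 closest patterns; exons named beyond that were chosen after their values were seen.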

Additional observations from a re-analysis of the deposited data

How the results depend on the processing

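Counts over all genes depended on the tool and on WT replicate 1. For gene levels edgeR called 0 genes, DESeq2 96, and 0 to 1172 with a library left out (1172 without WT replicate 1, 1 without S34F replicate 3). With both replicate 1 libraries left out it called 599. Of the demethylase genes, 0 to 2 were called at the gene level with a library left out (0 with both replicate 1 libraries out). Of the other lists 0 to 16 were called (10 with both replicate 1 libraries out). For cassette exons edgeR called 2, DESeq2 99, and limma 0. It called 0 with any library left out, with both replicate 1 libraries out and from the upstream junction alone. Of the demethylase exons DESeq2 called 1, and of their acceptors 3. For acceptors edgeR called 0, DESeq2 383 and limma 59. For donors edgeR called 3, DESeq2 244, limma 66, 0 to 5 with a library left out, and 0 with both replicate 1 libraries out.

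Same-numbered libraries did not all deviate together (correlations 0.208, 0.272 and 0.0242), so the numbers were not taken as pairs. Differently numbered libraries had correlations of -0.289 to 0.0785. Replicate 1 was male in both genotypes, and the main fit had no term for sex. With the replicate block, edgeR called 5 genes, 0 cassette exons and 0 donors, and no demethylase gene or exon changed its call.

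From the upstream junction alone the Kdm6a 51 nt form moved by 10.98 points and the 156 nt segment by -0.5269, against the direction given. The cause was not tested. The Jmjd1c upstream acceptor share stayed at -30.7 to -25.1 points with any library or both replicate 1 libraries left out, and the Jmjd1c 144 nt form at -48.0 to -8.95 over 9 alternatives. The log2 fold changes of Kdm3a, Kdm6a, Kdm6b and Kdm4a changed sign under at least 1 alternative. Over the 7260 cassette exons, the simulation recovered 22% of those whose odds changed 4-fold and 68% of those changed 8-fold.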
